A study of Ophthalmotilapia nasuta and Ophthalmotilapia ventralis with 60 samples.

Results

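The brain stem and the diencephalon of the same fish were compared in females of 2 cichlid species, Ophthalmotilapia nasuta and O. ventralis, from Lake Tanganyika. The samples were chosen by their labels, so that every library named as brain stem was paired with the library named as diencephalon from the same fish. This gave 20 of the 60 libraries of the series, 10 from each brain part, and thus 10 pairs of 5 O. nasuta and 5 O. ventralis females. The other 40 libraries hold the cerebellum, olfactory bulbs, optic tectum and telencephalon of these fish. All females were wild caught, their age was not given, and no treatment is named. The species came from different sites of the lake and were kept in 2 aquaria of different size in 1 room, and O. nasuta was dissected before O. ventralis, so that species, site, aquarium and order of dissection cannot be told apart. As dissected, the diencephalon includes the preoptic area, the hypothalamus and the pituitary. It was the last part to be removed, after the brain stem, so that brain part and time since death cannot be told apart either.

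The brain stem carries the nuclei of most cranial nerves, the reticular neurons with long axons to the spinal cord and the cell groups that drive breathing and movement. The diencephalon holds the thalamus and the hypothalamus and, through the pituitary, controls hormone release. Along the neural tube these regions keep the transcription factors that set them up in the embryo, with hox genes in the hindbrain and other homeobox genes in the forebrain. In fishes the preoptic area of the hypothalamus is the classical site of the neurons that make isotocin, the fish counterpart of oxytocin.

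Reads came from the 3′ ends of transcripts and were counted per gene. The brain stem libraries held 325455 to 673995 counts (median 488315) and the diencephalon libraries 317618 to 796949 (median 542369), so that 3 reads, the upper limit that a count of 0 allows, correspond to 4.45 to 9.22 CPM and 3.76 to 9.45 CPM in a single library. CPM are reads of a gene per megaread of its library, scaled by TMM, a correction for differences in library composition. Of 36499 genes in the files, 11680 passed the filter on low counts and were tested with edgeR. Each test compares the parts within fish, and a gene was called when its p-value, adjusted over all tested genes, was under 0.05. As the tissue was sequenced in bulk, fewer cells of a type and less RNA per cell cannot be told apart for any gene below.

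Between the brain stem and the diencephalon 4162 genes were called, which is 35.6% of those tested. Of these, 2298 genes (19.7%) were higher in the brain stem and 1864 (16.0%) in the diencephalon. Both shares are the background for the counts of called genes in the gene lists below, and several lists are near them. The median absolute log2 fold change of the called genes was 0.883, and 1778 of them (42.7%) differed by more than 1 on the log2 scale. A log2 fold change beyond 2, tested as such, was found for 197 genes (1.69%), with 110 genes higher in the brain stem (0.942%) and 87 genes higher in the diencephalon (0.745%). Of the first group 50 had a gene name in the files and 60 only a locus number, against 25 and 62 of the second group. The libraries of both parts did not overlap for 452 genes that were higher in the brain stem (3.87%) and 559 that were higher in the diencephalon (4.79%). The same direction in all 10 fish was seen for 1080 (9.25%) and 1014 (8.68%) tested genes. The median over all tested genes was 0.0401.

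For many called genes neither part was the extreme among all parts. When the 6 brain parts were ordered by their mean log2 (CPM + 1), the brain stem was the highest of all parts for 899 of the 2298 genes that were higher there, and the diencephalon the lowest for 578 of them. For 896 genes neither was the case. Of the 1864 genes higher in the diencephalon, 829 had their highest level of all parts in the diencephalon, 393 their lowest in the brain stem and 770 neither.

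**Figure D1:**
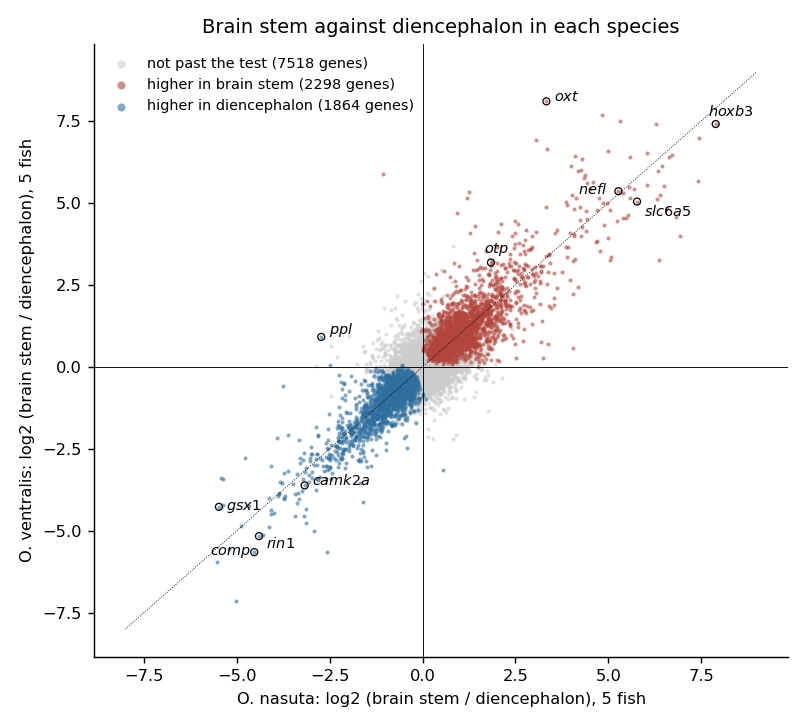
Log2 fold change between brain stem and diencephalon in O. nasuta (x axis, 5 fish) and in O. ventralis (y axis, 5 fish) for each of the 11680 tested genes, coloured by the test over both species, with the dotted line marking equal values. The called genes lie along that line (Pearson's r = 0.836 across all tested genes), whereas ppl lies at -2.73 in O. nasuta and 0.91 in O. ventralis.

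Both species were also tested apart. In O. nasuta 1467 genes were higher in the brain stem (12.6%) and 1248 in the diencephalon (10.7%), and in O. ventralis the numbers were 1536 (13.2%) and 1371 (11.7%). The overlap was 1985 genes, or 73.1% of those called for O. nasuta and 68.3% of those called for O. ventralis, and all 1985 had the same direction. The log2 fold changes of both species, which rest on different fish, were correlated across genes (Pearson's r = 0.836, Spearman's rho = 0.716), although genes do not vary independently of each other. A test of the difference between the species in the log2 fold change called 4 genes (0.0342%), and 608 genes (5.21%) had an unadjusted p under 0.05.

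Hox genes, which give the hindbrain and spinal cord their position along the body axis, were found in the brain stem and, except for hoxa7 (18 against 22 reads), hardly in the diencephalon. The 24 hox genes in the files summed to 283.5 to 723.5 CPM in the brain stem libraries (median 410.5) and to 4.36 to 21.2 CPM in the diencephalon (median 8.85). Of the 24, 10 had no read in the 20 libraries, 12 had a higher share of reads in the brain stem and 2 in the diencephalon. Only 6 passed the filter, and they could do so only through the brain stem, so that their number says little. The gene hoxb3 had 75.2 to 212 CPM (median 119) in the brain stem and 0 to 1.61 CPM (median 0) in the diencephalon. All brain stem libraries thus lay far above all diencephalon libraries, which held 2 reads of hoxb3 together against 622. The ratio of these reads was 344 (95% exact interval 94.7 to 2840, counting error only). For hoxc4 the levels were 75.2 to 193 CPM (median 92.9) in the brain stem and 0 to 3.86 CPM (median 0.67) in the diencephalon (log2 fold change 6.29, SE 0.33, adjusted p = 6.66e-27). The same direction was seen for hoxb8, hoxd3 and hoxa3, with log2 fold changes of 6.16, 6.00 and 5.82. O. nasuta fish 1 had the highest brain stem level of hoxb3 (212 CPM) and of hoxc4 (193 CPM).

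Transcription factors of hindbrain nuclei followed the same direction. Of 26 such genes in the files, 12 were too low to be tested, and of the other 14 tested, 12 were higher in the brain stem, none was higher in the diencephalon, and gata3 and tfap2a were not called. Their median log2 fold change was 2.71, against 0.0401 over all genes. The homeobox gene phox2a, which is needed for noradrenergic and cranial motor neurons, was higher in the brain stem in 10 of 10 fish. It had few reads, 62 against 1 (log2 fold change 5.07, SE 0.67, adjusted p = 7.02e-09). The log2 fold change ranged from 3.48 to 5.13 over the fits that tested it. The genes tlx2 and tlx3, homeobox genes of sensory and autonomic neurons, had 176 reads against 1 and 152 reads against 3. The level of tlx3 was higher still in the cerebellum, with a mean of 135 CPM against 31.1 CPM in the brain stem. For gbx1, a homeobox gene of the hindbrain and spinal cord, the range was 23.1 to 63 CPM (median 41.9) in the brain stem and 0 to 3.27 CPM (median 0) in the diencephalon. The early hindbrain genes mafb (2.33) and egr2 (1.44) and pax2 of the midbrain-hindbrain boundary (4.16) were also higher in the brain stem.

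In the other direction, forebrain genes marked the diencephalon. The homeobox gene gsx1, known from the hypothalamus and pituitary axis in mice, had 0 to 11.6 CPM (median 0.88) in the brain stem and 45.8 to 103 CPM (median 78.6) in the diencephalon. No library of the brain stem reached the lowest diencephalon library, and the log2 fold change was -4.88 (SE 0.41, adjusted p = 3.34e-13). The gene nkx2-1, which is required to form the hypothalamus, had 1.67 to 9.16 CPM (median 2.96) in the brain stem and 14.2 to 37.5 CPM (median 23) in the diencephalon (log2 fold change -2.57, SE 0.37, adjusted p = 2.53e-08). Genes of the thalamus behaved likewise, with shox2 at 52.1 to 91.6 CPM (median 79.4) in the brain stem and 333 to 595 CPM (median 444) in the diencephalon (log2 fold change -2.58, SE 0.13, adjusted p = 5.5e-28). For prox1 the levels were 17.5 to 40.5 CPM (median 29.7) in the brain stem and 163 to 375 CPM (median 264) in the diencephalon (log2 fold change -3.14, SE 0.17, adjusted p = 8.5e-28). The Wnt effector tcf7l2, a general marker of thalamic neurons, had a mean of 304 ± 48.9 CPM in the brain stem and 1090 ± 257 CPM in the diencephalon (SD, n = 10 fish each). All of these genes were higher in the diencephalon in 10 of 10 fish. The hypothalamic gene nkx2-4, which was too low to be tested, had 25 reads in the diencephalon and none in the brain stem, at least 7.54-fold higher when the floor is set to 3 reads over all 10 libraries.

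**Figure D2:**
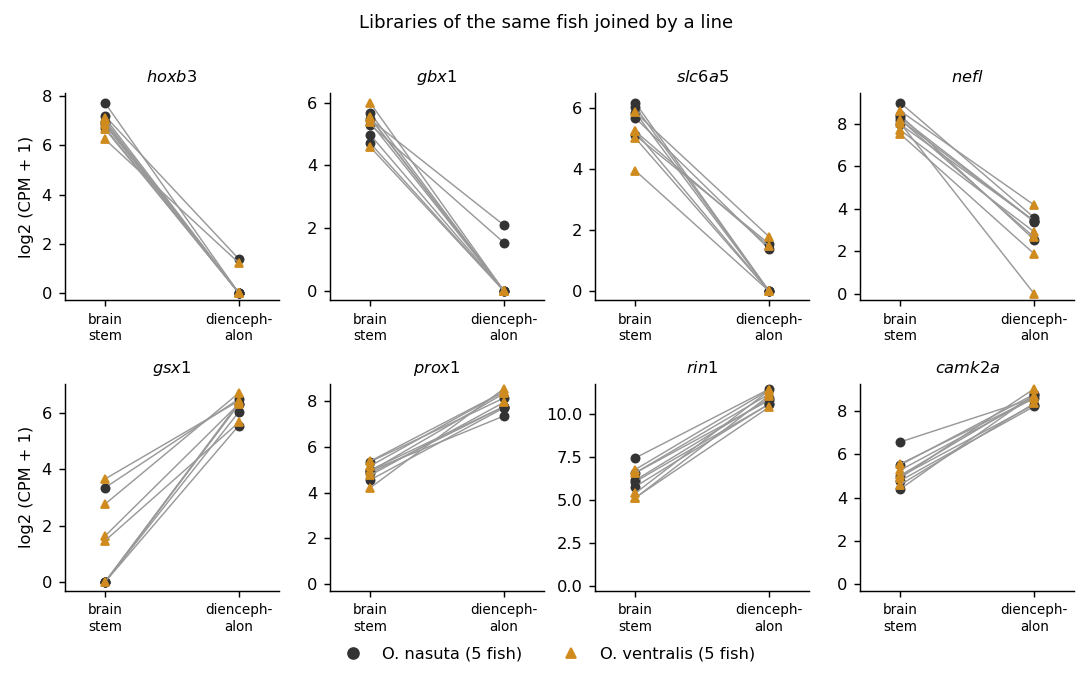
Level of 8 genes as log2 (CPM + 1) in the brain stem and in the diencephalon, with 1 line per fish and symbols by species. The upper row shows genes higher in the brain stem and the lower row genes higher in the diencephalon, and for all 8 genes the lines of all 10 fish run in the same direction and both parts do not overlap.

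As a whole, however, the list of thalamic and hypothalamic transcription factors went in both directions. Of 31 tested genes 10 (32.3%) were higher in the brain stem and 7 (22.6%) in the diencephalon. The median log2 fold change was -0.0615. Some of the 10 genes are also used in the hindbrain or midbrain in vertebrates, for instance meis2 (4.28), lhx1 (2.25) and the zinc finger genes zic1 and zic2, which are described below. The forebrain gene arx was higher too (7.53 against 2.02 CPM on average), but not past the test without O. nasuta fish 2, 4 or 5 or O. ventralis fish 3, 4 or 5 (adjusted p = 0.0541 to 0.102). With limma-voom arx was not called either (adjusted p = 0.128). The 7 genes higher in the diencephalon were those named above, six3 (-1.41) and dlx5 (-1.43, adjusted p = 0.0495). The call of dlx5 was lost without any one of O. nasuta fish 1, 2 and 3 and O. ventralis fish 1, 2, 4 and 5 (adjusted p = 0.0698 to 0.174). It was also lost with other scalings of the libraries (adjusted p = 0.0528, 0.0553 and 0.0643). Among the 10 was also the homeobox gene otp, which is known mainly from the hypothalamus. This gene, which is needed for the neuroendocrine neurons of the preoptic area, had 15.1 to 42.3 CPM (median 24.1) in the brain stem and 0 to 11.4 CPM (median 3.58) in the diencephalon (log2 fold change 2.51, SE 0.36, adjusted p = 2.71e-08). It was thus higher in the brain stem in 10 of 10 fish, without overlap. The gene otp was low in all other parts, with a mean of 3.87 CPM in the olfactory bulbs, 2.5 CPM in the optic tectum and 0.839 CPM in the telencephalon.

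Neuropeptide genes were likewise divided. Of 17 tested genes 7 (41.2%) were higher in the brain stem and 3 (17.6%) in the diencephalon. All tested genes had 19.7% and 16.0%. The median log2 fold change was 0.871. The gene oxt, which encodes isotocin, had levels of 1.73, 580, 207, 542 and 486 CPM in the brain stem of O. nasuta fish 1 to 5 and of 218, 429, 262, 417 and 243 CPM in O. ventralis fish 1 to 5. In the diencephalon the same fish had 29.9, 1.9, 163, 4.83 and 0 CPM in O. nasuta and 3.02, 2.44, 0, 1.77 and 1.34 CPM in O. ventralis. Hence 9 of 10 brain stem libraries held more than 200 CPM of oxt, O. nasuta fish 3 had it in both parts, and O. nasuta fish 1 had little in the brain stem and more in the diencephalon. The log2 fold change was 5.72 (SE 0.79, adjusted p = 3.62e-07). Leaving out each fish in turn gave log2 fold changes between 5.33 and 6.49, all past the test. Outside both parts oxt was at 824 CPM in the bulbs of O. ventralis fish 3 and at 60.1 and 15.4 CPM in those of fish 5 and 4, and at most at 2.03 CPM in the other olfactory bulb libraries. In the telencephalon of O. ventralis fish 3 it was at 27.1 CPM (8 reads).

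Further peptides of the stress and thyroid axes were higher in the brain stem too. The gene crh, corticotropin-releasing hormone, had 12.1 to 27.2 CPM (median 20.7) in the brain stem and 0 to 4.89 CPM (median 3.24) in the diencephalon (log2 fold change 2.71, SE 0.49, adjusted p = 8.52e-06). Its binding protein gene crhbp was also higher (log2 fold change 2.17, SE 0.54, adjusted p = 0.00124). The gene trh, thyrotropin-releasing hormone, had 63.9 to 169 CPM (median 106) in the brain stem and 13.5 to 147 CPM (median 38.2) in the diencephalon and was higher in the brain stem in 8 of 10 fish (log2 fold change 1.38, SE 0.39, adjusted p = 0.00433). The opioid precursor penk (0.71) and adcyap1, a stress-related peptide (0.81), were called with small differences, and penk did not pass the test when any of O. nasuta fish 2 and 5 and O. ventralis fish 1, 3, 4 and 5 was left out (adjusted p = 0.0629 to 0.156). Without O. ventralis fish 2 the same held for adcyap1 (adjusted p = 0.055). With limma-voom neither penk nor adcyap1 was called (adjusted p = 0.0519 and 0.0871). With all 60 libraries penk was not called either (adjusted p = 0.0506). In contrast to otp, crh was also found in the telencephalon (mean 35.3 CPM), the olfactory bulbs (36 CPM) and the optic tectum (29.5 CPM), and trh was highest in the olfactory bulbs (391 CPM). How much hypothalamic tissue was removed with the brain stem is not known, and its part in these differences was not tested.

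Other peptide genes were also higher in the brain stem. The gene rln3, relaxin 3, which marks a small nucleus of the pons in mammals, had 100 reads in the brain stem, at 1.73 to 35.3 CPM (median 22.2), and none in any diencephalon library. Against a floor of 3 reads over the 10 diencephalon libraries this is at least 36.8-fold higher in the brain stem. The calcitonin gene-related peptide gene calcb, a peptide of motor and sensory neurons, had 32.8 to 86.3 CPM (median 61.5) in the brain stem and 7.73 to 32.2 CPM (median 13.3) in the diencephalon (log2 fold change 1.99, SE 0.25, adjusted p = 6.24e-10). The gene gnrh2, the midbrain form of gonadotropin-releasing hormone, was too low to be tested and had 57 reads in the brain stem and none in the diencephalon (at least 21.0-fold, with the same floor). Spexin, spx, had 42 reads and 1 read (ratio 46.4, 95% exact interval 7.88 to 1880).

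Higher in the diencephalon were nmb, cck and pomc. The gene nmb, neuromedin B, had 1.73 to 11.6 CPM (median 6.2) in the brain stem and 49 to 168 CPM (median 88.5) in the diencephalon (log2 fold change -3.86, SE 0.31, adjusted p = 8.61e-16) and was low in every other part, at most 4.35 CPM on average. Cholecystokinin, cck, had 22.4 to 75.7 CPM (median 46.3) in the brain stem and 101 to 275 CPM (median 192) in the diencephalon (log2 fold change -2.03, SE 0.27, adjusted p = 1.15e-07), but its mean in the telencephalon was 899 CPM. The precursor of melanocortins and endorphin, pomc, which is made in the pituitary and in the hypothalamus, had 0, 0, 0, 0 and 3.05 CPM in the brain stem of O. nasuta and 0, 0, 3.88, 0 and 0 CPM in O. ventralis. In the diencephalon it had 1.57, 0, 22.9, 3.22 and 0 CPM in O. nasuta and 51.4, 63.5, 43.6, 0 and 4.02 CPM in O. ventralis. So pomc was found in the diencephalon of 7 of 10 fish and at more than 20 CPM in 4 of them, with 76 reads against 3 (ratio 22.9, 95% exact interval 7.56 to 114). The edgeR test called pomc (log2 fold change -3.97, SE 0.73, adjusted p = 1.06e-05), whereas DESeq2 did not (adjusted p = 0.535).

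Of 23 listed pituitary genes only 13 were in the files by name. Among these cga, fshb and pou1f1 had few reads, whereas the levels of pomc are given above. The glycoprotein hormone subunit gene cga had 19 reads in the 10 diencephalon libraries and 2 in the brain stem, and fshb, the beta subunit of follicle-stimulating hormone, had 27 and 15. The pituitary transcription factor pou1f1 had 4 and 3. Of 7 tested pituitary and secretory genes 3 were higher in the diencephalon, namely pomc, chga (-0.82) and pcsk1 (-0.39), and scg2 was higher in the brain stem (0.88). The last 3 belong to the secretory granules of peptide neurons in general. The small difference of pcsk1 no longer passed the test without O. nasuta fish 1, 3 or 4 or without O. ventralis fish 2 or 5 (adjusted p = 0.0664 to 0.103). The same held with total counts in place of TMM (adjusted p = 0.0741).

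Some genes changed sides between fish. Over all tested genes the log2 ratio of brain stem to diencephalon within a fish had a median SD of 0.547 over the 10 fish, and an SD above 0.984 in 5% of genes, while it exceeded 2 for 10 genes. The 10 genes were chosen after their values were seen, and their spread was not tested. Among the 10 genes are oxt (SD 3.17), the homeobox gene six6 (2.23), dmrta2 (2.54), and the neuronal transcription factors bhlhe22 (2.46) and neurod6 (2.0), whereas 4 had only a locus number. The gene six6 is known from the hypothalamus and retina. Its brain stem levels were 1.73, 2.56, 1.67, 20.2 and 24.4 CPM in O. nasuta fish 1 to 5 and 2.1, 7.56, 17.4, 37.0 and 37.6 CPM in O. ventralis fish 1 to 5. The diencephalon had 6.29, 41.8, 39.2, 24.1 and 1.93 CPM in O. nasuta and 36.3, 9.77, 2.18, 3.55 and 5.36 CPM in O. ventralis. It was therefore higher in the diencephalon in 6 fish and higher in the brain stem in O. nasuta fish 5 and O. ventralis fish 3, 4 and 5.

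The gene dmrta2 divided the fish as six6 did, and bhlhe22 and neurod6 did so only in part. The gene dmrta2 had 67.2 against 3.86 CPM in O. nasuta fish 5 and 1.67 against 154 CPM in O. nasuta fish 3, and it was higher in the brain stem in the same 4 fish as six6, by little in O. ventralis fish 3 (38.8 against 37.0 CPM). For bhlhe22 the diencephalon held 304 CPM in O. nasuta fish 3 and 3.86 CPM in fish 5, while the brain stem held 38.3 and 171 CPM. Among O. nasuta only fish 5 had more bhlhe22 in the brain stem, whereas all O. ventralis females did. In O. ventralis fish 1 and 2 the levels were 84 against 66.5 CPM and 215 against 92.8 CPM. For neurod6 the brain stem was higher in the same 4 fish as for six6 and in O. ventralis fish 2. None of six6, dmrta2, bhlhe22 and neurod6 was called over both species (adjusted p = 0.943, 0.0683, 0.477 and 0.146). Without O. nasuta fish 5, however, dmrta2 was called as higher in the diencephalon (log2 fold change -1.66, adjusted p = 0.000709). The gene dmrta2 was also called without O. ventralis fish 4 (adjusted p = 0.0207) and in a model without terms for the fish (adjusted p = 0.0486). The same held with no filter on low counts, with the newer quasi-likelihood method of edgeR and without robust estimation (adjusted p = 2.8e-06, 0.0303 and 0.0226). In contrast, neurod6 was called as higher in the brain stem without O. ventralis fish 1 (log2 fold change 1.17, adjusted p = 0.0239). With no filter on low counts neurod6 was called in the same direction (0.693, adjusted p = 0.0213). In the 4 fish with more six6 in the brain stem, hoxb3 and gsx1 were higher in the same part as in the other 6. Brain stem gsx1 was at 9.16 CPM (3 reads) in O. nasuta fish 5. In O. ventralis fish 3, 4 and 5 it was at 11.6, 1.76 and 5.79 CPM (6, 1 and 2 reads). Of the other 6 fish it was at 2.1 CPM (1 read) in O. ventralis fish 1 and at 0 in the rest. These are few reads, the 4 fish were chosen by their six6 levels, and the difference in gsx1 between them and the others was not tested. A library with a different pattern was the diencephalon of O. nasuta fish 3, where the apolipoprotein genes apoa4 and apo14kda were at 13.1 and 42.5 CPM, against medians of 452 and 1200 CPM over the 10 fish.

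**Figure D3:**
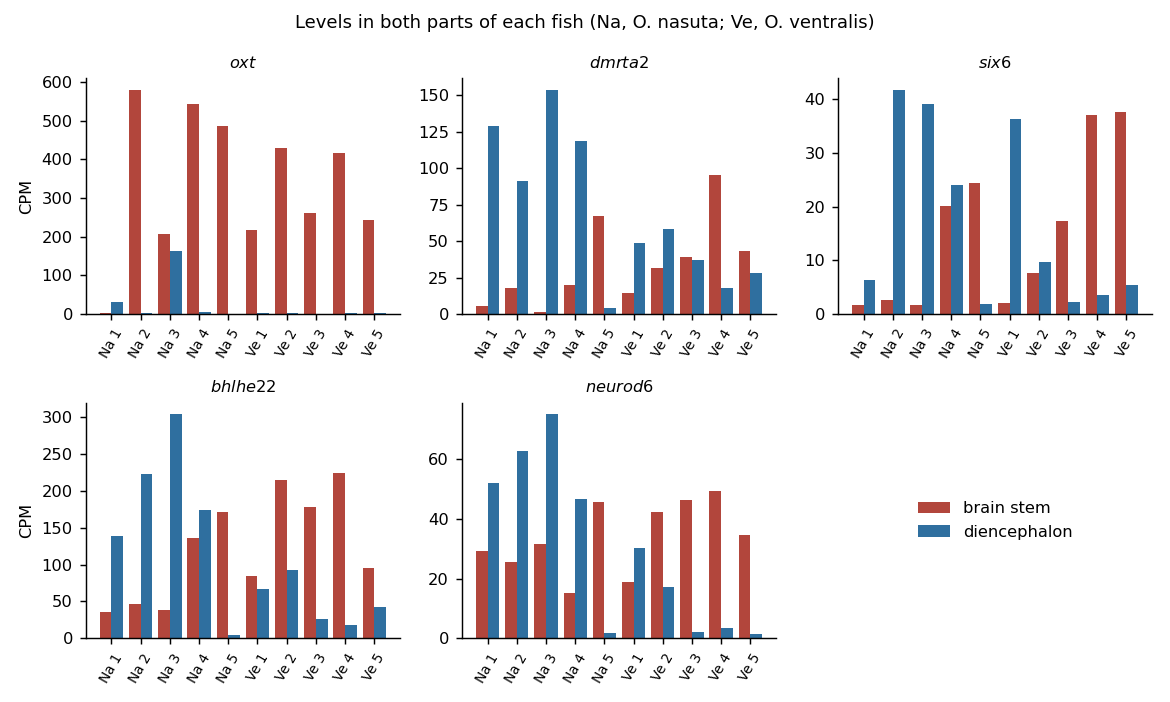
Level in CPM of 5 genes with a large spread of the ratio between both parts, as bars for the brain stem and the diencephalon of each of the 10 fish. For dmrta2 and six6 the higher bar is the diencephalon in O. nasuta fish 1 to 4 and O. ventralis fish 1 and 2 and the brain stem in the other 4 fish, whereas oxt is higher in the brain stem in 9 of 10 fish.

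Neurofilaments, which fill large axons, and other genes of fast conducting neurons were higher in the brain stem. Of 16 tested genes 11 were higher there, 2 in the diencephalon (map1a and tnr), and the median log2 fold change was 0.745. The light chain gene nefl had 182 to 508 CPM (median 292) in the brain stem and 0 to 17.1 CPM (median 8.02) in the diencephalon (log2 fold change 5.31, SE 0.22, adjusted p = 4.49e-33). The medium chain gene nefm followed with 808 to 1720 CPM (median 1250) in the brain stem and 139 to 193 CPM (median 176) in the diencephalon (log2 fold change 2.89, SE 0.11, adjusted p = 9.03e-36), and the heavy chain gene nefh with a log2 fold change of 2.07. Peripherin, prph, a filament of motor and sensory neurons with axons in the periphery, had 15.3 to 31.1 CPM (median 21.4) in the brain stem and 0 to 3.22 CPM (median 0) in the diencephalon (log2 fold change 4.64, SE 0.49, adjusted p = 8.14e-13). For these 4 genes the libraries of both parts did not overlap, and the brain stem mean exceeded that of every other part. The same was true of ret, a receptor on motor and autonomic neurons (81.7 ± 16.8 against 7.55 ± 3.6 CPM, SD, n = 10), and hapln4, a link protein of the nets around large neurons (log2 fold change 1.96, SE 0.20, adjusted p = 7.62e-14).

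Genes of myelin were higher in the brain stem with few exceptions. Of 14 tested genes 12 were higher there, none in the diencephalon, and the median log2 fold change was 1.37. The 20 genes in the files summed to 2446 to 4004 CPM in the brain stem and to 1158 to 1465 CPM in the diencephalon, so that the sums did not overlap. The major structural gene mpz, which in fishes is also used in central myelin, had 1450 to 2830 CPM (median 1930) in the brain stem and 632 to 840 CPM (median 747) in the diencephalon (log2 fold change 1.39, SE 0.11, adjusted p = 3.32e-17). The myelin adhesion gene mag had 225 to 390 CPM (median 301) in the brain stem and 78.6 to 131 CPM (median 102) in the diencephalon (log2 fold change 1.55, SE 0.13, adjusted p = 1.04e-16). Enzymes of myelin lipids, fa2h (1.74) and ugt8 (1.52), and the oligodendrocyte transcription factors myrf (1.09) and sox10 (0.78) were higher too. Not called were mbp, with a log2 fold change of 0.73 at 8.38 and 5.55 CPM on average, and tppp. With only the 20 libraries of both parts tppp was called in the diencephalon, also after thinning to 1 total (adjusted p = 0.0449 and 0.0496). Among genes of fatty acid and cholesterol synthesis 5 of 14 were higher in the brain stem and none in the diencephalon. The largest difference was that of acly, which makes cytosolic acetyl-CoA and had 250 to 523 CPM (median 321) in the brain stem and 26.6 to 66.1 CPM (median 45.3) in the diencephalon (log2 fold change 2.96, SE 0.16, adjusted p = 1.85e-25). The other 4 were fasn, elovl5, elovl6 and srebf1, of fatty acid synthesis, at log2 fold changes of 0.46 to 0.89. No tested gene of the sterol branch was called. Of the 27 genes of this list in the files, however, 13 were too low to be tested. The sterol genes sqle and ebp, for instance, had 2 and 7 reads in the brain stem and 0 and 3 in the diencephalon. The call of elovl5 was lost without O. ventralis fish 5 (adjusted p = 0.0765).

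Astrocyte and radial glia genes did not move together. Of 11 tested genes 6 (54.5%) were higher in the brain stem and 1 (9.09%) in the diencephalon, against 19.7% and 16.0% of all tested genes. The summed level of the 13 genes had a similar range in both parts (4070 to 5465 and 4018 to 5387 CPM). The filament gene gfap had 221 to 577 CPM (median 306) in the brain stem and 19.6 to 62.1 CPM (median 47.2) in the diencephalon (log2 fold change 2.97, SE 0.15, adjusted p = 7.75e-29). The glutamate transporter slc1a2 of astrocytes was higher in the diencephalon, with 1330 to 2030 CPM (median 1570) in the brain stem and 2500 to 3400 CPM (median 2900) in the diencephalon (log2 fold change -0.85, SE 0.10, adjusted p = 6.75e-12). The gene slc1a2 alone made up a large part of the summed level of this list. Of 7 tested genes of microglia and macrophages 5 were higher in the brain stem, among them cd74 (1.32), lcp1 (2.20) and spi1 (2.15), while hexb and grn were not called. The sum of the 9 microglial genes was 673.9 to 1151 CPM in the brain stem and 209.2 to 526.2 CPM in the diencephalon. Of 14 tested genes of blood and vessels 3 (21.4%) were higher in the brain stem (acta2, tagln and pdgfrb), close to the 19.7% of all tested genes, and the sums were 256.6 to 393.6 and 199.4 to 311 CPM. The call of tagln was lost with libraries thinned to 1 total (adjusted p = 0.0509). The gene pdgfrb was at the edge of the test (adjusted p = 0.0461) and did not pass it in 8 of the 10 fits that left out 1 fish, all but those without O. nasuta fish 2 and O. ventralis fish 1 (adjusted p = 0.0574 to 0.174). It also did not pass with no filter on low counts or with all 60 libraries (adjusted p = 0.0609 and 0.0643).

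Of 7 tested genes of glycine transmission 3 were higher in the brain stem and 1 in the diencephalon. The neuronal glycine transporter slc6a5, which marks glycinergic neurons, had 14.5 to 71.6 CPM (median 43.7) in the brain stem and 0 to 2.44 CPM (median 0) in the diencephalon (log2 fold change 5.41, SE 0.44, adjusted p = 1.2e-17), and it had at most 1.4 CPM on average in any other part. The receptor subunit glra1 had 324 to 703 CPM (median 499) in the brain stem and 54.1 to 150 CPM (median 80.9) in the diencephalon (log2 fold change 2.58, SE 0.12, adjusted p = 5.28e-30), and the glial transporter slc6a9 a log2 fold change of 1.28. The subunit glrb, which glycine receptors share, was slightly higher in the diencephalon (-0.43), and glra2, gphn and slc32a1 were not called. With libraries thinned to 1 total, glra2 and gphn were called in the diencephalon (adjusted p = 0.0424 and 0.0359). In the brain stem slc32a1 was called with thinning and with only the 20 libraries of both parts (adjusted p = 0.0458 and 0.0364). Of 14 tested GABA genes 4 (28.6%) were higher in the brain stem and 5 (35.7%) in the diencephalon, against 19.7% and 16.0% of all tested genes. The synthesis gene gad1 (1.63) and the glial transporter slc6a11 (1.28) were higher in the brain stem, and the receptor subunits gabra2 (-1.99) and gabrb2 (-1.13) in the diencephalon.

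Of 21 tested glutamate genes the brain stem was higher in 5 (23.8%) and the diencephalon in 9 (42.9%), with a median log2 fold change of -0.154. The species had medians of opposite sign, 0.148 in O. nasuta and -0.46 in O. ventralis, a difference that was not tested. The vesicular transporter slc17a6, which marks glutamatergic neurons of the diencephalon and brain stem in mammals, had 102 to 507 CPM (median 206) in the brain stem and 640 to 1000 CPM (median 834) in the diencephalon (log2 fold change -1.81, SE 0.18, adjusted p = 4.99e-11). On the postsynaptic side the NMDA receptor subunit gene grin2b had 118 to 195 CPM (median 145) in the brain stem and 399 to 542 CPM (median 452) in the diencephalon (log2 fold change -1.59, SE 0.13, adjusted p = 6.56e-16). In the same direction were the scaffold gene shank2 (-1.93), the AMPA receptor subunit gria1 (-1.30) and the kainate receptor subunit grik5 (-1.17). A different NMDA receptor subunit, grin2c, was higher in the brain stem, with 31.7 to 57.4 CPM (median 46.6) in the brain stem and 0 to 6.54 CPM (median 4.8) in the diencephalon (log2 fold change 3.47, SE 0.26, adjusted p = 2.08e-19), and its mean in the cerebellum was 157 CPM.

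Genes of calcium binding and of calcium-dependent kinases and phosphatases were mostly higher in the diencephalon. Of 12 tested genes 9 were higher there and none in the brain stem, the median log2 fold change was -0.986, and the summed levels of 3483 to 4560 CPM in the brain stem and 7421 to 16310 CPM in the diencephalon did not overlap. The kinase gene camk2a, which is activated by calcium and calmodulin at synapses, had 20.2 to 94.7 CPM (median 31.2) in the brain stem and 298 to 526 CPM (median 390) in the diencephalon (log2 fold change -3.40, SE 0.29, adjusted p = 6.51e-13). Protein kinase C beta, prkcb, had 51.1 to 168 CPM (median 77.5) in the brain stem and 596 to 965 CPM (median 736) in the diencephalon (log2 fold change -3.17, SE 0.22, adjusted p = 2.26e-15). The catalytic subunit of calcineurin, ppp3ca, was among the 5 most abundant named genes that were higher in the diencephalon, with 1760 to 2630 CPM (median 2290) in the brain stem and 3700 to 11100 CPM (median 9070) in the diencephalon (log2 fold change -1.88, SE 0.13, adjusted p = 1.09e-16). For all 3 genes the diencephalon had the highest mean of the 6 parts. The gene ppp3ca alone, with means of 2240 CPM in the brain stem and 8320 CPM in the diencephalon, made up a large part of the summed levels. The highest brain stem levels of camk2a (94.7 CPM) and of prkcb (168 CPM) belonged to O. nasuta fish 5.

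Other named genes had a large log2 fold change in favour of the diencephalon. The Ras and Rab interactor rin1, known from synaptic plasticity in mice, had 33.2 to 171 CPM (median 67) in the brain stem and 1340 to 2770 CPM (median 2020) in the diencephalon (log2 fold change -4.79, SE 0.25, adjusted p = 9.43e-20), and its mean in the telencephalon was 1150 CPM. The exchange factor ngef (-4.24) and the MAP kinase kinase map2k1 (-3.67) were also shared with the telencephalon, at 26.9 and 170 CPM against 86.7 and 202 CPM in the diencephalon. The muscarinic receptor gene chrm5 had 0 to 8.68 CPM (median 6.08) in the brain stem and 37 to 83.1 CPM (median 53.4) in the diencephalon (log2 fold change -3.33, SE 0.31, adjusted p = 9.5e-15) and at most 11 CPM on average in another part. The matrix gene comp, best known from cartilage, had 0 to 12.2 CPM (median 2.02) in the brain stem and 77.9 to 213 CPM (median 134) in the diencephalon (log2 fold change -5.10, SE 0.36, adjusted p = 4.38e-16) and at most 9.72 CPM on average elsewhere. Further genes by the same rule were zbtb7c, rd3l, lrmp, phospho1 and kctd4, with log2 fold changes of -4.47, -4.40, -4.07, -3.60 and -3.53.

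Of 16 tested sodium, calcium and HCN channel genes 3 (18.8%) were higher in the brain stem and 8 (50%) in the diencephalon. All tested genes had 19.7% and 16.0%. The calcium channel subunit cacnb1 had 41.7 to 113 CPM (median 54.3) in the brain stem and 242 to 443 CPM (median 379) in the diencephalon (log2 fold change -2.60, SE 0.15, adjusted p = 1.74e-24), and cacna1d, an L-type channel that opens near rest, had a log2 fold change of -2.25. The P/Q-type channel gene cacna1a, one of the most abundant named genes higher in the brain stem, differed by only 0.35 (SE 0.11, adjusted p = 0.00916). It no longer passed the test without O. nasuta fish 2 or O. ventralis fish 5 (adjusted p = 0.0688 and 0.0567). Of 30 tested potassium channel genes 4 (13.3%) were higher in the brain stem and 13 (43.3%) in the diencephalon, with a median of -0.24. Among the 13 were the channels kcng1 (-2.08), kcnj3 (-1.82) and kcnh1 (-1.46), and among the 4 the leak channels kcnk12 (1.67) and kcnk3 (1.28). The call of kcnk3 was lost with thinned libraries (adjusted p = 0.124).

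Genes that neurons switch on with activity were higher in the diencephalon in 10 of 17 cases (58.8%) and in the brain stem in 4 (23.5%). With O. nasuta alone 4 were called in each direction, and with O. ventralis alone 8 for the diencephalon against 3 for the brain stem. The gene fosb had 6.04 to 30.5 CPM (median 14.1) in the brain stem and 9.07 to 134 CPM (median 63.7) in the diencephalon and was higher in the diencephalon in 10 of 10 fish (log2 fold change -2.14, SE 0.20, adjusted p = 5.82e-15). Others were dusp4 (-1.55), npas4 (-1.01, with adjusted p = 0.0534 in a model without terms for the fish) and egr1 (-0.72). The 4 genes higher in the brain stem were egr2 (1.44), nr4a2 (2.65), klf4 (2.57) and dusp1 (1.21). Brain part and time of removal cannot be told apart for the genes of this list in either direction. The list of heat shock and hypoxia genes had 3 of 17 genes (17.6%) higher in the brain stem, 2 (11.8%) in the diencephalon and a median of 0.104.

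Genes of monoamine synthesis were low in both parts. Of 9 tested genes ddc, which makes dopamine and serotonin from their precursors, had 9.7 to 18.9 CPM (median 14.7) in the brain stem and 0 to 6.54 CPM (median 3.51) in the diencephalon (log2 fold change 2.05, SE 0.43, adjusted p = 8.31e-05). The gene pnmt, which makes adrenaline, had 0 to 3.52 CPM (median 0) in the brain stem and 3.22 to 22.8 CPM (median 15.6) in the diencephalon (log2 fold change -3.32, SE 0.53, adjusted p = 4.27e-07), and in the same direction was tph1, of serotonin and melatonin synthesis (-2.87). Tyrosine hydroxylase, th, was not called, with 0 to 10.1 CPM in the brain stem and 0 to 9.81 CPM in the diencephalon. It passed the test without O. nasuta fish 3 or O. ventralis fish 1 or 2 (log2 fold change 1.84 to 1.98, adjusted p = 0.0305 to 0.0464). With no filter on low counts th passed as well (log2 fold change 1.64, adjusted p = 0.0191). Among receptors of monoamines and peptides 5 of 16 (31.2%) were higher in the brain stem and 3 (18.8%) in the diencephalon. For all tested genes the shares were 19.7% and 16.0%. The beta-1 adrenergic receptor adrb1 had 48.9 to 179 CPM (median 107) in the brain stem and 5.32 to 22.8 CPM (median 15.9) in the diencephalon (log2 fold change 2.83, SE 0.31, adjusted p = 4.22e-10) with a mean of 798 CPM in the cerebellum. In the other direction were the serotonin receptor htr1f (-2.40), the alpha-1B adrenergic receptor adra1b (-1.63) and the cannabinoid receptor cnr1 (-1.31).

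Guidance and adhesion genes showed opposite members of the same family. Of 10 tested ephrin and Eph genes 6 receptors, epha3, epha4, epha5, epha6, epha7 and ephb3, were higher in the diencephalon and epha8 in the brain stem, with a median of -0.764. Among 31 genes of semaphorins, slits, netrins and their receptors 12 (38.7%) were higher in the brain stem and 6 (19.4%) in the diencephalon. The semaphorin receptor nrp1 had 95.1 to 226 CPM (median 125) in the brain stem and 3.86 to 29.4 CPM (median 10.8) in the diencephalon (log2 fold change 3.40, SE 0.26, adjusted p = 7.55e-16), and it was higher still in the optic tectum, at a mean of 315 CPM. The related receptor nrp2 had 112 to 266 CPM (median 195) in the brain stem and 263 to 496 CPM (median 394) in the diencephalon in the opposite direction (log2 fold change -1.12, SE 0.13, adjusted p = 2.05e-10). In Wnt signalling the agonist rspo2 had 27.2 to 69.1 CPM (median 54.6) in the brain stem and 0 to 12.2 CPM (median 5.68) in the diencephalon (log2 fold change 3.31, SE 0.28, adjusted p = 7.9e-17). Beta-catenin, ctnnb1, which carries the Wnt signal to the nucleus, was higher in the diencephalon (-1.18). In total 4 of 16 Wnt genes (25%) were higher in the brain stem and 3 (18.8%) in the diencephalon. All tested genes had 19.7% and 16.0%.

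Genes that every cell uses differed by small amounts, for ribosomal proteins mostly to the side of the brain stem. Of 66 tested ribosomal protein genes 16 (24.2%) were higher in the brain stem, against 19.7% of all tested genes, and none in the diencephalon. Their median was only 0.157, with a log2 fold change of 0.48 for rps25, the most abundant of them that was called. The summed level of all 67 was higher in the brain stem in 10 of 10 fish (medians 36320 and 32870 CPM). Of the 67 genes 62 had a higher share of reads there, without TMM scaling. This count was not made over all genes and so has no background. With total counts in place of TMM the median log2 fold change of all tested genes was 0.114. Of 50 nuclear genes of oxidative phosphorylation 2 were higher in the brain stem and 3 in the diencephalon, with a median of -0.00981. The mitochondrial genes COX3 (-0.28) and COX2 (-0.40) were the most abundant named genes higher in the diencephalon, together with ppp3ca, ptprd and slc1a2. Among named genes higher in the brain stem the most abundant were mpz, cacna1a, tmsb4x (0.35), elavl4 (0.92) and rps25. Of these tmsb4x is a thymosin that binds actin and elavl4 a neuronal RNA-binding protein.

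The other lists had smaller or mixed differences. Of 13 tested nuclear receptor genes and retinoid binding proteins 8 were higher in the brain stem and 2 in the diencephalon. The retinoic acid binding protein crabp1, known from the hindbrain, had 333 to 780 CPM (median 517) in the brain stem and 36.7 to 147 CPM (median 64.7) in the diencephalon (log2 fold change 2.94, SE 0.23, adjusted p = 8.14e-14), and the retinoic acid receptors rara (1.21) and rarg (1.15) were higher in the brain stem too. Of 12 clock genes 6 (50%) were higher in the diencephalon, such as the repressor nr1d1 (-1.42) and hlf (-1.41). The 2 clock genes (16.7%) higher in the brain stem were rora (0.53) and rorb (0.97). In O. nasuta alone 3 clock genes were called in the brain stem and 2 in the diencephalon, and in O. ventralis alone 1 and 3. Among 16 cadherins 8 (50%) were higher in the brain stem and 2 (12.5%) in the diencephalon, against 19.7% and 16.0% of all tested genes. Among 31 genes of synaptic vesicles and release the numbers were 9 (29%) and 8 (25.8%). In the last list rims4 (2.82) and syt14 (-2.31), both of vesicle release, had the largest differences in each direction. Of 26 kinesin and dynein motor genes 3 (11.5%) and 2 (7.69%) were called, and of 7 cholinergic and motor neuron genes 4 and 2. Of 6 meningeal genes 1 (16.7%), col1a1 (1.07), was called in the brain stem. Of 3 tested habenular and pineal genes pou4f1 was higher in the brain stem (4.06) and tph1 in the diencephalon. Calls were lost for rorb without O. nasuta fish 1 or O. ventralis fish 1, for nr1d1 without O. ventralis fish 5 and for col1a1 without O. nasuta fish 2 or 4 or O. ventralis fish 4 (adjusted p = 0.0724 to 0.169). The filament protein gene nexn was also among the 15 named genes with the largest log2 fold changes in the brain stem (5.12).

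Several genes that were higher in the brain stem than in the diencephalon are known as markers of the cerebellum. Of 13 tested genes of granule and Purkinje cells 10 were higher in the brain stem, 2 in the diencephalon (pcp4 and cbln1), and the median log2 fold change was 3.19. The gene zic1, a zinc finger gene of granule cells that is also expressed in the dorsal hindbrain, had 452 to 1390 CPM (median 826) in the brain stem and 5.8 to 67 CPM (median 22.8) in the diencephalon (log2 fold change 4.99, SE 0.41, adjusted p = 2.46e-13) and a mean of 4220 CPM in the cerebellum. The cadherin fat2 of granule cell fibres had 67.2 to 271 CPM (median 207) in the brain stem and 0 to 12.1 CPM (median 3.21) in the diencephalon (log2 fold change 5.72, SE 0.38, adjusted p = 2.06e-16) against 544 CPM in the cerebellum and 159 CPM in the optic tectum. For neurod1 the levels were 134 to 878 CPM (median 501) in the brain stem and 21.8 to 93.3 CPM (median 55) in the diencephalon, with 1540 CPM in the cerebellum. The related genes zic2 and zic5 and the granule cell gene pax6 had log2 fold changes of 4.26, 4.04 and 3.48. The sum of the 13 genes was 2447 to 5123 CPM in the brain stem, 956.5 to 1343 CPM in the diencephalon, 1245 to 3672 CPM in the optic tectum and 11590 to 14530 CPM in the cerebellum. In the brain stem zic1, fat2 and neurod1 had their lowest level in the same fish, O. nasuta fish 5 (452, 67.2 and 134 CPM). None of the defining genes was at 0 in the brain stem, and the part of cerebellar tissue in these differences was not tested.

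Markers of the optic tectum were present in the brain stem at a lower level. Of 13 tested genes 5 (38.5%, against 19.7% of all tested genes) were higher in the brain stem than in the diencephalon, and none in the diencephalon. The gene pou4f2 had 9.16 to 55.3 CPM (median 21.3) in the brain stem and 0 to 3.8 CPM (median 0) in the diencephalon (log2 fold change 5.32, SE 0.47, adjusted p = 3.89e-14) and a mean of 284 CPM in the optic tectum. Similarly, pax7 had 7.04 to 34.5 CPM (median 16.1) in the brain stem and 0 to 9.81 CPM (median 1.46) in the diencephalon (log2 fold change 2.94, SE 0.41, adjusted p = 4.74e-09) and 282 CPM in the tectum. The 13 tectal genes summed to 167.8 to 293.5 CPM in the brain stem, 107.5 to 164.8 CPM in the diencephalon and 1116 to 1359 CPM in the optic tectum, while tfap2d had only 5 reads in the brain stem and none in the diencephalon. The telencephalic marker tbr1 was near the floor in both parts, at 0 to 10.1 CPM in the brain stem and 0 to 3.22 CPM in the diencephalon. The difference of tbr1 was not called (log2 fold change 1.93, SE 0.81, adjusted p = 0.0585) but passed the test without O. nasuta fish 1, 2 or 3 (adjusted p = 0.0352, 0.0434 and 0.0369). It also passed with total counts, with no filter on low counts, with the newer quasi-likelihood method, without robust estimation and with DESeq2 (adjusted p = 0.0478, 0.0062, 0.0309, 0.0329 and 0.0131). The telencephalic list had 2 of 11 genes (18.2%) higher in the brain stem, neurod2 (1.75) and bcl11b (1.04), and none in the diencephalon. This is close to the 19.7% of all tested genes. In O. nasuta alone 1 gene was called in each direction, and in O. ventralis alone 4 in the brain stem and 0 in the diencephalon. The list summed to 207.2 to 463.5 CPM in the brain stem, 77.3 to 572.2 CPM in the diencephalon and 1860 to 2415 CPM in the telencephalon. The part of tectal or telencephalic tissue in the differences was not tested.

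**Figure D4:**
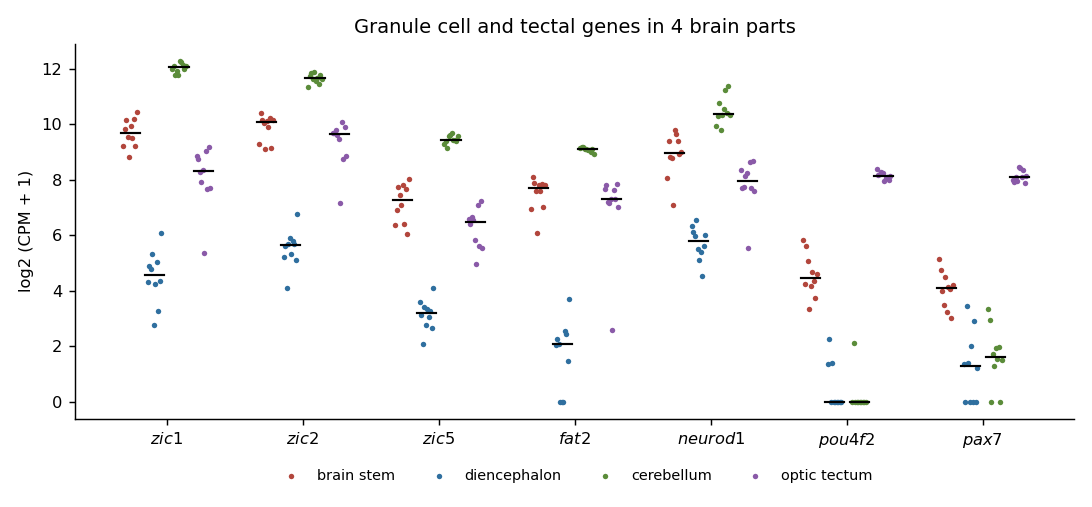
Level of 5 granule cell genes and 2 tectal genes as log2 (CPM + 1) in the brain stem, diencephalon, cerebellum and optic tectum, with 1 point per library (10 per part) and a bar at the median. For the granule cell genes the brain stem lies between the diencephalon and the cerebellum, with zic1 at medians of 826 CPM in the brain stem and 22.8 CPM in the diencephalon, and pou4f2 and pax7 are highest in the tectum.

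**Figure D5:**
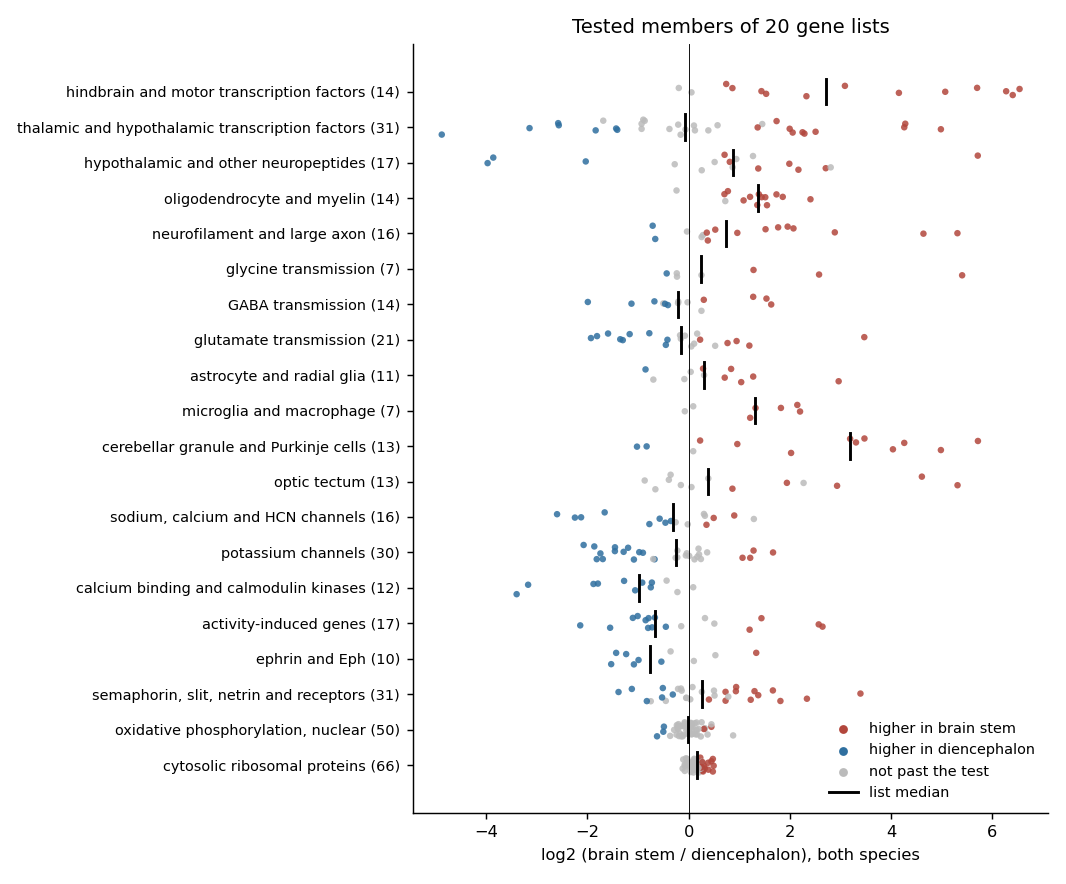
Log2 fold change between brain stem and diencephalon over both species for the tested members of 20 gene lists, with 1 point per gene, the number of tested genes in brackets and a bar at the median of the list. Myelin and hindbrain genes lie on the side of the brain stem (medians 1.37 and 2.71). Genes of calcium binding and calcium-dependent kinases and phosphatases lie on the side of the diencephalon (-0.986). Ribosomal genes (0.157) and genes of oxidative phosphorylation (-0.00981) lie near 0.

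The 4 genes whose difference differed between the species were ppl and 3 genes with only a locus number. The gene ppl, periplakin, which links junctions of epithelial cells to filaments, had 3.45, 10.2, 16.7, 12.6 and 21.4 CPM in the brain stem of O. nasuta fish 1 to 5 and 73.9, 70.3, 91.6, 85.2 and 94.7 CPM in the diencephalon. In O. ventralis the brain stem had 8.4, 10.6, 7.76, 7.04 and 5.79 CPM and the diencephalon 0, 0, 17.4, 1.77 and 4.02 CPM. So ppl was higher in the diencephalon in all 5 O. nasuta females and in 1 of 5 O. ventralis females, and it was the diencephalon of O. nasuta that stood apart. The difference between the log2 fold changes of both species was -3.64 (SE 0.66, adjusted p = 0.00552). LOC100709972 had log2 fold changes of 1.18 in O. nasuta and 5.14 in O. ventralis (difference -3.95, SE 0.82, adjusted p = 0.0411). LOC100706597 had 0.10 and 1.16 (adjusted p = 0.0437). LOC100709336 had -1.06 and 5.87 (adjusted p = 0.0463), and it was among the genes whose ratio varied most between fish. Each of the 3 loci lost this call in 8 of the 10 fits that left out 1 fish, with adjusted p = 0.0621 to 0.339 for LOC100709972, 0.0826 to 0.396 for LOC100706597 and 0.16 to 0.398 for LOC100709336. Over all alternatives the call was lost in 10 of 23 for LOC100709972 and for LOC100706597 and in 15 of 22 for LOC100709336, and for each of them with DESeq2 (adjusted p = 0.125, 0.0563 and 0.997). The files pair these loci with no gene name. The number of genes that differed between the species hung on single fish, with 19 genes without O. nasuta fish 5 and none without O. ventralis fish 2 or fish 4. Without O. ventralis fish 2 or fish 4 ppl had differences of -3.21 and -3.50 between the species (adjusted p = 0.0868 and 0.0631). With the 20 libraries thinned to 1 total its difference was -3.16 (adjusted p = 0.229).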

How the data were processed

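RNA of 6 brain parts from 10 fish was sequenced from the 3′ end (QuantSeq, Lexogen). Per the study's methods and the labels, the authors trimmed the reads, aligned them to the Oreochromis niloticus genome with STAR 2.5.2b and counted uniquely placed reads per gene, by strand, with HTSeq 0.6.1p1. The authors deposited these raw counts, 1 table per library, and the 5 summary lines per table were left out here. Reads outside genes were 15.1 to 18.6% of uniquely placed reads in the brain stem and 15 to 18.6% in the diencephalon. As only ends of transcripts were counted against the genes of another species, levels of different genes are not directly comparable. The sums over lists and the choice of the most abundant genes take CPM as they are. Of the 36499 genes 26287 carry only a locus number, no sequence or gene name was added, and no pair of libraries was identical.

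One shallow library (25798 counts, olfactory bulbs, O. nasuta fish 5) was not used, and genes above 15 CPM in at least 4 of the other 59 libraries were kept (11680). Libraries were scaled by TMM and fitted together in edgeR 4.0.16 (R 4.3.3, quasi-likelihood, robust) with terms for fish and for species by brain part. Differences between brain stem and diencephalon were tested two-sided as the mean of both species, per species, between the species, and against a log2 fold change of 2, with Benjamini-Hochberg adjustment at 0.05. All adjusted p-values in the text come from edgeR unless DESeq2 or limma-voom is named. The test of the mean of both species was checked on simulated counts. The pairs are given by the labels, since both libraries of a pair come from the same fish. After removal of the group means, both libraries of a fish had a mean correlation across genes of 0.0498 (-0.0055 to 0.131), against -0.0123 for libraries of different fish, and 6 of 10 brain stem libraries were closest to the diencephalon of their own fish. The p-values rest on how much differences between parts vary among these fish, after the terms for fish and for species by brain part. This spread was estimated from all 59 libraries, with information shared across genes.

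Genes were named from 37 gene lists and from the genes that differed between species. Added were the 15 largest differences in each direction among named genes that passed the test against a log2 fold change of 2. Only genes alike in 10 fish were used for these differences. Added too were the 5 most abundant called genes in each direction, again only among genes with a gene name. Some genes that this rule names are not reported here. The lists and genes were chosen with earlier results of these data known, so that counts within a list are a description. Ratios of reads have exact intervals and, where a part had none, a floor of 3 reads over its 10 libraries, and both cover counting error only. Alternatives were other scalings and filters, models without fish terms, with 20 or with all 60 libraries, other settings of edgeR, DESeq2 1.42.0, limma-voom (limma 3.58.1), thinning of the 20 libraries to 317618 counts and leaving out each fish in turn.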

Additional observations from a re-analysis of the deposited data

Results flagged for a closer look

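For each gene with a value in the report, the 10 fish were searched within each part for a library far from the other 9. The limit used marks about 1 in 20 groups when values are normally distributed, and 41 of 318 were marked. CPM values need not be so distributed, above all at few reads, so that this number cannot be read as an excess. The brain stem of O. nasuta fish 1 was marked for 9 genes, that of O. nasuta fish 5 for 6 genes and the diencephalon of O. nasuta fish 3 for 7 genes.

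The brain stem of O. nasuta fish 1 had the highest level of the hindbrain genes hoxb3 (212 CPM), hoxa3 (86.3 CPM) and hoxc4 (193 CPM), of acly (523 CPM), nrp1 (226 CPM) and epha7 (65.6 CPM), and of the clock genes nr1d1 (12.1 CPM), rora (464 CPM) and rorb (38.0 CPM). The brain stem of O. nasuta fish 5 was highest in genes that were otherwise higher in the diencephalon, namely camk2a (94.7 CPM), prkcb (168 CPM), cacnb1 (113 CPM), ctnnb1 (803 CPM), pcsk1 (171 CPM) and dlx5 (33.6 CPM). In the brain stem a further 8 genes had a single high library, which was O. nasuta fish 3 for tppp (232 CPM), O. ventralis fish 1 for tlx3 (56.7 CPM), fish 2 for gphn (227 CPM), fish 3 for fshb (11.6 CPM), fish 4 for mpz (2830 CPM) and col1a1 (42.2 CPM), and fish 5 for shank2 (127 CPM) and COX2 (4470 CPM).

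The diencephalon of O. nasuta fish 3 was highest in genes that were otherwise higher in the brain stem, namely oxt (163 CPM), trh (147 CPM), meis2 (49.0 CPM), pax6 (16.4 CPM) and crabp1 (147 CPM), as well as in mbp (16.4 CPM), and it was lowest in apoa4 (13.1 CPM). The diencephalon of O. ventralis fish 5 was highest in zic2 (107 CPM), fat2 (12.1 CPM) and rd3l (40.2 CPM). O. ventralis fish 1 had the highest diencephalon level of col1a1 (15.1 CPM) and lcp1 (36.3 CPM) and the lowest of ppp3ca (3700 CPM). O. ventralis fish 4 had the highest of pax2 (12.4 CPM) and the lowest of kcnh1 (55.0 CPM). Single high libraries were further found for calcb in O. nasuta fish 4 (32.2 CPM), rps25 in O. nasuta fish 1 (1790 CPM) and rorb in O. ventralis fish 3 (17.4 CPM).

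The difference between brain stem and diencephalon itself differed between the species, as O. nasuta minus O. ventralis on the log2 scale, by -3.64 for ppl, -3.95 for LOC100709972, -1.06 for LOC100706597 and -6.94 for LOC100709336.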

How the results depend on the processing

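No called value changed direction under any alternative run. Among named genes that were not called, six6 (-0.512 to 0.523), gata3 (-0.0853 to 0.132), hexb (-0.209 to 0.0373) and grn (-0.0914 to 0.187) had log2 fold changes on both sides of 0. The numbers of genes higher in the brain stem or the diencephalon stayed within 1.5 times under every alternative run, and no gene called both there and in the reported fit had the opposite sign. Leaving out each fish gave 1990 to 2185 genes higher in the brain stem and 1752 to 1922 in the diencephalon, 1050 to 1436 and 1018 to 1369 in O. nasuta, 1216 to 1570 and 1184 to 1392 in O. ventralis, and 101 to 111 and 79 to 88 beyond a log2 fold change of 2. The number of genes that differed between the species was 0 to 19 with a fish left out, namely 19 without O. nasuta fish 5 and 0 without O. ventralis fish 2 or fish 4. It was 25 with no filter on low counts, 8 with only the 20 libraries, 2 without robust estimation and 1 with DESeq2. The cause of these changes in number was not tested.

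With total counts in place of TMM 63.2% of the called genes were higher in the brain stem, against 55.2%, and the median of all genes was 0.114 against 0.0401. Without the replicate block, that is without terms for the fish, 4102 genes were called, of which 4043 were among the 4162, and 3 genes differed between the species. Of 4061 values for 179 named genes or differences, 3932 stayed on the same side of the threshold, 101 lost the call, 72 of them with a fish left out, and 28 gained it. The numbers beyond a log2 fold change of 2 were not run with DESeq2 and limma-voom. Genes at a few reads per library, such as pomc, th or the pituitary hormones, are limited by depth.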
